A study of Drosophila melanogaster with 2 samples.

Results

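The segment polarity genes divide each segment of the Drosophila embryo into anterior and posterior parts. The 10 described here, wg, hh, ptc, smo, fu, arm, ci, en, inv and gsb, were chosen by symbol from 13945 annotated protein-coding genes. The rule uses none of the values described here, but the choice was made with earlier results of these data known. All 10 were found in the annotation. They encode parts of both signalling systems that hold the boundary between these anterior and posterior parts in place. Hedgehog, made by the posterior cells of a segment, binds Patched on neighbouring cells, which frees Smoothened to signal through Fused to the transcription factor Ci. Wingless, made by the cells across the boundary, stabilises Armadillo, the fly beta-catenin, and in return keeps engrailed and hedgehog on. As background from genetics, 7 of the genes are transcribed in stripes or in patterned domains (wg, hh, ptc, ci, en, inv and gsb) and 3 are transcribed broadly and act where the signal arrives (smo, fu and arm).

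The data are chromatin immunoprecipitations from whole embryos of a transgenic Drosophila melanogaster strain named Myb-GFP, in which a C-terminal GFP is fused to Myb, collected at 0 to 24 h with males and females pooled. The chromatin, sonicated to a size range of 200 to 800 bp, was pulled down with anti-GFP antibody, and the series has 1 group of 2 biological replicates from the same fly line. No control library was analysed here, so background could not be measured in the same way. Myb binds DNA as one subunit of Myb-MuvB, a complex known in flies for its place at promoters of cell cycle genes. A peak is an average over every cell type and stage in the collection, so few cells with Myb at a site and weak binding in many cells cannot be told apart.

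Each replicate had a list of 30000 peaks, another list of 30000 was made from the pooled replicates, and a called set held 6100 peaks, which were the 6100 strongest of the pooled list. Per the labels' file listing, the long lists hold background as well as peaks, and the called set was cut from them by the irreproducible discovery rate (IDR), a measure of agreement between replicates. Of all summits in the pooled list, 47.1% had a summit within 100 bp in both replicate lists, against 95.1% of the called ones. The signal of a peak is the authors' own value on a scale that is not stated, and it is compared only within a list. Called peaks had signals between 93.9 and 7447 (median 183), while the pooled, replicate 1 and replicate 2 lists began at 24.3, 12.6 and 14.6. Read depth is unknown. A promoter summit is a peak summit within 500 bp of any annotated transcription start site (TSS) of a gene, and positions are those of build dm6, with negative distances upstream of the TSS.

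Of the 10 segment polarity genes, only smo had a called promoter summit, beside 35.6% of all protein-coding genes. None of the 7 patterned genes had one, and 1 of the 3 broadly expressed genes did. In the longer lists 7 of the 10 genes had a promoter summit (wg, hh, ptc, smo, fu, arm and ci). That background was 59.1% in the pooled list, 59.1% in replicate 1 and 58.2% in replicate 2. The same 7 genes had one in all 3 lists, as did 52.5% of all genes. They were 4 of the 7 patterned and 3 of the 3 broadly expressed genes. The genes en, inv and gsb had no promoter summit in any list. Genes are not replicates of a condition and the series has a single group, so these counts are read beside the background and no test was made of them.

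**Figure D1:**
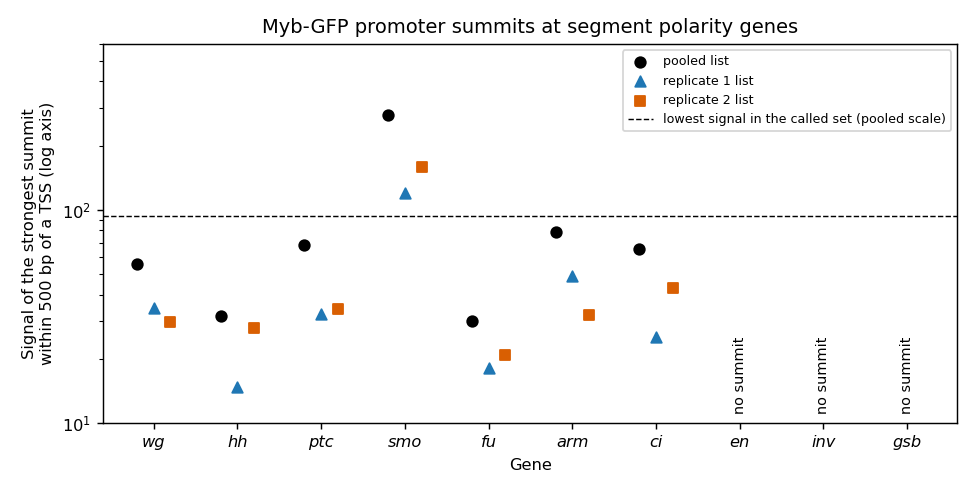
Signal of the strongest summit within 500 bp of a TSS of each segment polarity gene (log axis), with circles for the pooled list, triangles for replicate 1 and squares for replicate 2, each on its own scale. The dashed line is the lowest signal of the called set, 93.9, and applies to the circles: smo at 278 lies above it, arm at 79.0 lies nearest below it, and en, inv and gsb have no promoter summit.

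Neither ligand gene had a called summit at its own start. The gene wg (FBgn0284084), which encodes the secreted Wnt ligand Wingless, lies on arm 2L from 7307159 to 7316265 on the plus strand. Its promoter summit had a signal of 55.9 in the pooled list, 34.4 in replicate 1 and 29.6 in replicate 2. It lay 128 bp upstream of the single TSS in the pooled list, and the replicate summits, 128 bp apart, were at 108 and 236 bp upstream. Both replicates therefore had a weak promoter summit, and 23.7% of the genes with a promoter summit in the pooled list were weaker. No called summit lay within 10 kb of wg. The nearest to its TSS was 25515 bp away, and the wg window held 4 pooled summits, or 0.137 per kb beside a median of 0.323 over all genes, the strongest with a signal of 58.9 at 8207 bp upstream.

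The gene hh (FBgn0004644), which encodes the Hedgehog ligand, lies on arm 3R from 23128169 to 23141906 on the minus strand. Its promoter summit had a signal of 31.8 in the pooled list, 14.8 in replicate 1 and 27.8 in replicate 2. The first 2 values lay below the medians over all peaks of those lists, 41.1 and 20.5, and the last above the median of 24.4. The replicate summits were 430 bp apart, on either side of the TSS, so they do not mark one place. The window of hh held 13 pooled summits (0.385 per kb), 2 of them called, and both called ones sat at the start of another gene. The nearer, with a signal of 145, lay 176 bp beyond the 3′ end of hh and 12 bp upstream of the TSS of CG31457. It was present in both replicates, at 80.0 and 64.5. The other, with a signal of 106 and at the start of CenB1A and Rassf, ranked far lower in replicate 1 (signal 18.9, rank 16824) than in replicate 2 (63.1, rank 4829). Inside hh the strongest pooled summit lay in an intron 8218 bp into the gene. Its signal was 73.0, which is below the called set, with 30.0 at 35 bp away in replicate 1. Replicate 2 had 2 summits nearby, one of signal 41.9 at 122 bp and one of 24.2 at 83 bp.

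The sequences at these ligand gene summits are shown because they contrast a weak promoter summit, a weak intron summit and a called summit at a neighbour's start. Capitals mark words searched on both strands: the CHR word TTCGAA or TTTGAA, the Myb word CAACGG or TAACGG, the DRE word TATCGATA, and the GAGA word GAGAG. CHR stands for cell cycle genes homology region, an element bound by MuvB complexes, and DRE for the DNA replication-related element. The first sequence is the 101 bp around the wg promoter summit, 2L:7306981-7307081 on the plus strand, and it holds no word. The second is the 101 bp around the hh intron summit, 3R:23133638-23133738, and the third is the whole interval between hh and CG31457, 3R:23127982-23128168, both read on the minus strand. The intron holds 1 CHR word, and the 187 bp interval holds 2 CHR words and 1 GAGA word, read here on the opposite strand as CTCTC. The called summit lies 11 bp from the CG31457 end of this interval, where the printed sequence ends. Both CHR words are away from it, at 96 and 136 bp, and the GAGA word is 13 bp from it. A DRE word also lies within 50 bp of the summit, at least partly beyond that end of the interval, so it is not complete in the letters shown.
wg promoter summit: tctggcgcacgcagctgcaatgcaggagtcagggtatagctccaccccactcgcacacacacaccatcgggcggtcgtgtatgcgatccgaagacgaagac
hh intron summit: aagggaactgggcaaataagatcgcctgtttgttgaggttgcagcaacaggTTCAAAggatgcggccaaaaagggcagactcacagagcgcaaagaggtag
hh and CG31457 interval: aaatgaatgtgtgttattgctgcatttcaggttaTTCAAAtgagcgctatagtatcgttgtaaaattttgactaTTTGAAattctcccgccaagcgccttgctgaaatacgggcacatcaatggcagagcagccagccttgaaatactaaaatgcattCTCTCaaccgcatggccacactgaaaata

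The other Wnt ligand genes were listed beside wg, and were named after their values were seen. Of Wnt2, Wnt4, Wnt5, Wnt6, Wnt10 and wntD, only Wnt6 had a called promoter summit, beside 35.6% of all protein-coding genes. The summit of Wnt6 had a signal of 144 at 465 bp upstream of its TSS. Wnt2 and Wnt4 had pooled promoter summits at 28.8 and 24.7, and Wnt5, Wnt10 and wntD had none in the pooled list. In that list 59.1% of all protein-coding genes had one.

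The receptor genes differed in where the summits lay. The gene smo (FBgn0003444), which encodes the transmembrane signal transducer Smoothened, lies on arm 2L from 277582 to 282167 on the plus strand. Its called promoter summit had a signal of 278 at position 277366, with 120 in replicate 1 and 158 in replicate 2. It ranked 1843 in the called set, 2248 in replicate 1 and 1570 in replicate 2, and the replicate summits were 13 bp apart. This promoter was the strongest of the 10 genes in each list, and its signal was above that of 60.4% of the genes with a called promoter summit. The summit lay 216 bp upstream of the TSS of smo and 154 bp upstream of the nearest TSS of CG17078, a gene transcribed in the opposite direction, so the peak cannot be given to either gene alone. A second pooled summit 14 bp upstream of the TSS of smo had a signal of 65.1 and was below the called set.

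The window of smo held 6 more called summits, all at starts of other genes. They lay at CG17075 (signals 184 and 126), Dus1 (182), CG11601 (212) and CG3625 (183 and 173). One of the CG17075 summits, that of signal 184, had its nearest replicate 1 summit, of signal 95.1, 142 bp away.

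The gene ptc (FBgn0003892), which encodes the Hedgehog receptor Patched and is itself a target of the pathway, lies on arm 2R from 8649649 to 8665223 on the plus strand. Its promoter summit, 80 bp downstream of the TSS, had a signal of 68.5 in the pooled list, 32.3 in replicate 1 and 34.3 in replicate 2. The replicate summits were 35 bp apart, so the site was found again at the same place, below the called set. The window of ptc held 30 pooled summits, or 0.843 per kb, the highest density of the 10 genes. A long noncoding RNA gene, lncRNA:CR44281, starts within ptc, and 1 pooled summit of signal 35.4 lay at its start.

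Of 5 called summits in the ptc window, 2 lay at a TSS of Acsl, which encodes a long-chain acyl-CoA synthetase and begins just beyond the end of ptc. The stronger, with a signal of 706 and 379 and 321 in the replicates, was 231 bp beyond ptc and 359 bp upstream of the Acsl TSS, and it was the strongest summit in any of the 10 windows. The other at Acsl had a signal of 244. The remaining 3 were at no TSS. One of signal 186 lay 5241 bp upstream of ptc, with 98.6 and 86.3 in the replicates. One of signal 176 lay 997 bp downstream of the nearest of the Acsl TSSs, with 82.7 and 90.2. The last, of signal 101, lay in a ptc intron 4753 bp into the gene, with a replicate 1 summit of 34.3 at 40 bp away and a replicate 2 summit of 59.0 at 135 bp. It was the only called summit inside any of the 10 genes.

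The transducer genes fu and arm had called summits nearby but none at their own starts. The gene fu (FBgn0001079), which encodes the kinase Fused, lies on arm X from 18657755 to 18661204 on the plus strand. Its promoter summit had the lowest pooled signal of the 7, 30.2, with 18.0 in replicate 1 and 20.8 in replicate 2, and the replicate summits were 327 bp apart. Called summits lay 4619 bp upstream of fu at Ing3 (signal 137) and 9585 bp upstream at Nup35, a nucleoporin gene (222). Their distances to the starts of those genes were 45 and 12 bp upstream.

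The gene arm (FBgn0000117), which encodes Armadillo, lies on arm X from 1891401 to 1900646 on the minus strand and has 4 annotated TSSs. Its strongest promoter summit had a signal of 79.0 in the pooled list, 48.7 in replicate 1 and 32.1 in replicate 2. The replicate 1 summit was at the first TSS and the replicate 2 summit at an internal one, 1068 bp apart. At the first TSS itself replicate 2 had a summit of signal 30.6, ranked 11008, against a rank of 5755 in replicate 1. With the 6100 strongest peaks of replicate 1 in place of the called set, arm would therefore be counted as called, and with those of replicate 2 it would not. The called summits around arm lay at Ldaf1 (signal 199, 1268 bp upstream of arm), at mRpL16 and trr (116), and at the starts of mip130 and Edem1 (206, with 92.8 and 108 in the replicates). The gene mip130 encodes a subunit of the Myb-MuvB complex itself.

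Among the factor genes, ci was the one with called summits in its window, and the stronger lay at no TSS. The gene ci (FBgn0004859), which encodes the zinc finger protein that carries the Hedgehog signal to the nucleus, lies on chromosome 4 from 47710 to 57041 on the minus strand. Its strongest promoter summit had a signal of 65.4 in the pooled list, 25.4 in replicate 1 and 43.1 in replicate 2. The strongest replicate summits lay at different TSSs, 1013 bp apart. Near the internal TSS replicate 1 also had a summit of signal 21.1, which lay 110 bp from that of 43.1 in replicate 2 and 89 bp from another of 33.2, so this place was found in both. The antisense RNA asRNA:CR43957 starts near the internal TSS. The called summit at 63456, 6415 bp upstream of the gene, was stronger than the promoter summits. Its signal was 364, rank 1274, with 186 (rank 1281) in replicate 1 and 180 (rank 1290) in replicate 2, so the replicates placed it at nearly equal ranks. The nearest TSS of any kind was that of snoRNA:CD-24, 2189 bp away. A second called summit in the window, of signal 121, lay at the start of PlexB, which encodes a plexin receptor. The called interval upstream of ci, 4:63313-63555 on the minus strand, is shown because it is the strongest summit near a patterned gene that lies at no annotated start, and its capitals mark 1 DRE word.
ci upstream peak: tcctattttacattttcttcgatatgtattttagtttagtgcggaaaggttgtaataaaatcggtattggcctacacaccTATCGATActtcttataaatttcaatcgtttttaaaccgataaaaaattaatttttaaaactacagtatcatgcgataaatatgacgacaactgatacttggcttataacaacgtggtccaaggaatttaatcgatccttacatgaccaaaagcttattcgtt

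The homeobox genes en (FBgn0000577) and inv (FBgn0001269), which encode related factors of the posterior compartment, are neighbours on arm 2R. The former runs from 11524006 to 11528210 on the minus strand and the latter from 11474465 to 11509695 on the plus strand. No called summit lay within 10 kb of either, and the nearest to a TSS was 53971 bp away for en and 22546 bp for inv. The window of en held 2 pooled summits, of signals 33.7 and 27.6, or 0.0826 per kb, the lowest density of the 10 genes. The first of these lay between the genes, in both windows. The window of inv held 9 pooled summits. The strongest, of signal 76.5, lay in an inv intron with 22.6 in replicate 1 and 52.6 in replicate 2, where its rank of 5878 was within the strongest 6100. The next, of signal 57.7, lay 4803 bp upstream of inv with 20.1 and 34.5 in the replicates.

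The gene gsb (FBgn0001148), which encodes a paired-domain factor needed to keep wg on, lies on arm 2R from 25061964 to 25064643 on the plus strand. No called summit lay within 10 kb, and the nearest to its TSS was 14706 bp away. Its window held 5 pooled summits with signals from 25.6 to 49.3, the highest of which was lower than in any other window except that of en. The summit of signal 28.1 lay at the start of its paralog gsb-n.

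**Figure D2:**
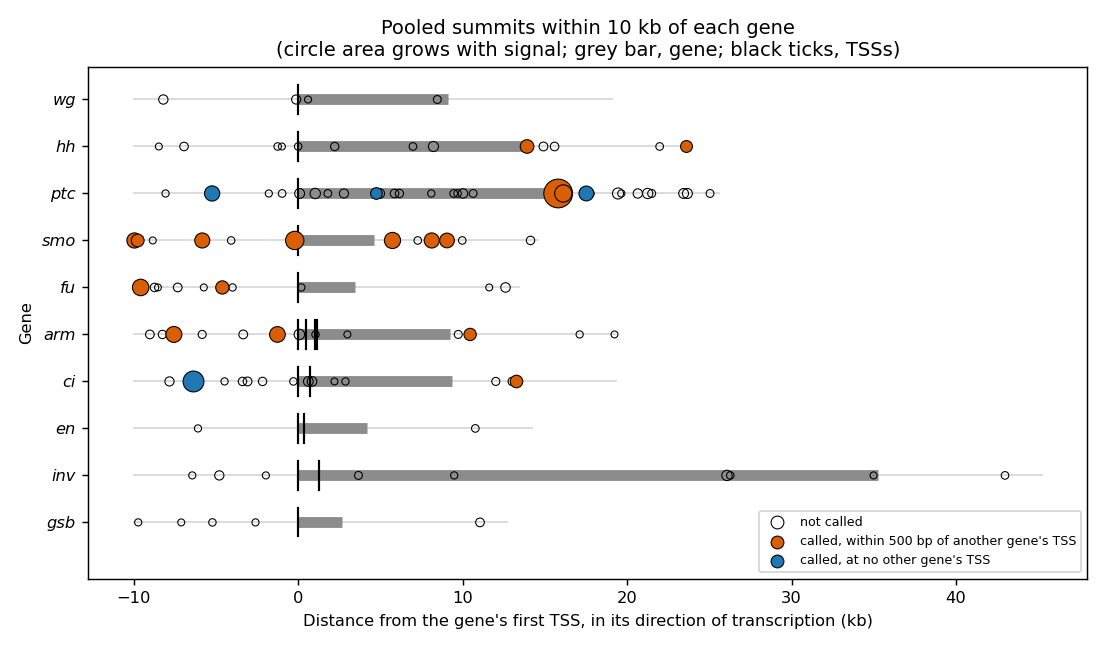
Pooled summits within 10 kb of each segment polarity gene, by distance from its first TSS in kb along its direction of transcription; grey bars are the genes, black ticks their TSSs, and circle area grows with signal. Orange circles are called summits within 500 bp of another gene's TSS, blue circles called summits at no other gene's TSS, and open circles were not called: 17 of the 21 called summits are orange, and the 4 blue ones lie near ci and ptc.

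With 10 kb on either side of each gene, 6 of the 10 genes had a called summit (hh, ptc, smo, fu, arm and ci), beside 73.7% of all protein-coding genes. They were 3 of the 7 patterned and 3 of the 3 broadly expressed genes. The window grows with gene length, so these shares and those below do not come from windows of equal size. Median gene length was 9176.5 bp for the 10 genes and 2170 bp over all genes. It was 9332 bp for the patterned and 4586 bp for the broadly expressed genes. All 10 genes had a summit in their window in each of the longer lists, where the background was 91.8% in the pooled list, 94.4% in replicate 1 and 92.1% in replicate 2. Called summits that were not at another gene's TSS were found near 2 of the 10 genes, ci and ptc, beside 34.1% of all genes. Of the 21 called summits in the 10 windows, 16 lay only at the start of another gene, 1 was shared by smo and CG17078, and 4 were at no TSS. All 12 around the broadly expressed genes were at a TSS, as were 5 of the 9 around the patterned genes, and 71.5% of all 6100 called summits were. In both replicate lists a summit lay within 100 bp of 19 of these 21 called summits, or 90.5%, and of 35 of the 94 other pooled summits in the windows, or 37.2%, beside 34.9% of all pooled summits that were not called.

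The order of promoter signal among the 7 genes did not hold between replicates, apart from smo, which was first in both. In replicate 1 smo was followed by arm, wg, ptc, ci, fu and hh, and in replicate 2 by ci, ptc, arm, wg, hh and fu. The ranks of arm were 5755 and 10362, those of ci 11180 and 7314 and those of wg 7995 and 11477, so these neighbours in the order were not separated beyond the spread between replicates. The genes hh and fu were the last in both. The ranks of hh, 24149 in replicate 1 and 12481 in replicate 2, lay farther apart than those of arm, ci or wg. The median of the 7 genes was 65.4 in the pooled list, 32.3 in replicate 1 and 32.1 in replicate 2, beside medians of 126, 65.1 and 64.0 over all genes with a promoter summit in those lists. In the pooled list 76.1% of those genes were weaker than smo, but 34.4% were weaker than arm and 5.92% weaker than fu.

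The surroundings of the patterned and the broadly expressed genes, which the choice of genes did not use, were also described. The patterned genes had a median of 1 other protein-coding gene with a TSS in the window (0 to 3), the broadly expressed genes 7 (5 to 8), and all genes 5. The median distance from a TSS to the nearest called summit was 14706 bp for the patterned genes, 1268 bp for the broadly expressed ones and 3045 bp over all genes. The groups met at fu (4619 bp), the farthest of the broadly expressed genes, and ptc (4753 bp), the nearest of the patterned ones. Over all genes 57.1% had a called summit as near as fu or nearer, and 57.5% as near as ptc or nearer. Over all genes with 0 to 2 such neighbours, where wg, en, inv, gsb, ci and ptc belong, 18.2% had a called promoter summit and 45.8% a called summit within 10 kb. With 3 to 6 neighbours, as for hh and fu, these shares were 38.9% and 79.5%, and with more, as for arm and smo, 43.4% and 85.3%. Whether the number of neighbours accounts for the difference between patterned and broadly expressed genes was not tested.

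**Figure D3:**
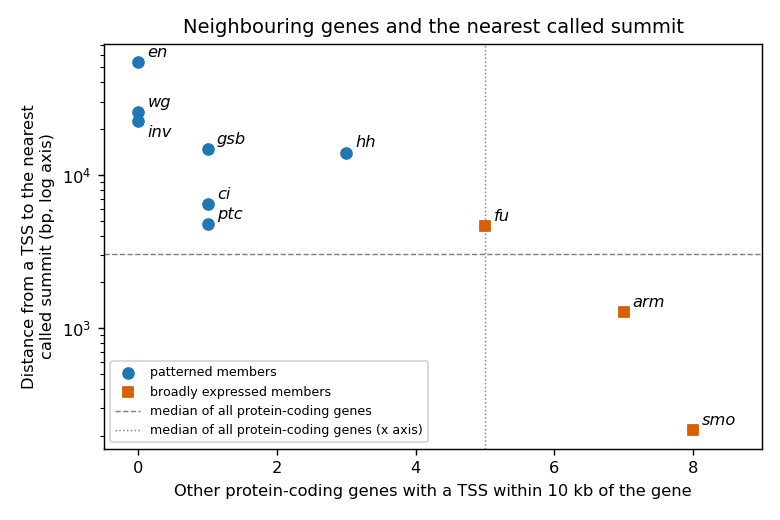
Number of other protein-coding genes with a TSS within 10 kb of each segment polarity gene against the distance in bp from its TSS to the nearest called summit (log axis), with blue circles for the 7 patterned and orange squares for the 3 broadly expressed genes. Dashed and dotted lines are the medians of all protein-coding genes, 3045 bp and 5 genes; smo and arm lie below the first and to the right of the second.

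A divergent neighbour means here a gene of any kind that starts on the opposite strand within 1 kb upstream of any TSS, internal ones included. It was annotated for 4 of the 10 genes: ci and arm with antisense RNAs, smo with CG17078 and fu with CG6659. That of ci starts inside the gene, upstream of the internal TSS only. Over all genes 39.6% had such a neighbour. Of these 57.8% had a called promoter summit, against 21.1% of genes without such a neighbour. Among the 4 genes it was smo that had one.

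Other genes listed under the same pathways were counted in the same way, without a test of the difference from the segment polarity genes. The Wingless list included the other Wnt ligand genes named above, and whether each of them acts through Armadillo was not examined. Of 18 other Hedgehog pathway genes, 11 had a called promoter summit, with signals from 108 to 923. The strongest were at ttv, which encodes a heparan sulfate polymerase needed for Hedgehog movement (923), Pka-C1, the protein kinase A catalytic subunit that phosphorylates Ci (815), and rdx, a Cullin adaptor that targets Ci for degradation (534). The summit at Pka-C1 was shared with hoip, and those at disp, boi, cos, slmb, dlp and botv also lay within 500 bp of another gene's TSS. Such peaks cannot be given to either gene alone. Of the 10 Hedgehog pathway genes with a divergent neighbour, 8 had a called promoter summit, against 3 of the 8 without. Of 23 other Wingless pathway genes, 14 had one, with signals from 95.6 to 1024. The strongest were at gish, a casein kinase gene (1024), sgg, the fly GSK-3 kinase that marks Armadillo for degradation (855), and gro, the corepressor Groucho (499). The summits at Axn, Apc2, pygo and wls lay within 500 bp of another gene's TSS. Of the 8 Wingless pathway genes with a divergent neighbour, 6 had a called promoter summit, against 8 of the 15 without. Neither the 9 pair-rule genes nor the 6 gap genes, the earlier tiers of segmentation, had any called promoter summit. The promoter share was 35.6% over all genes. It was 18.2% over genes with 0 to 2 other genes in the window, where all 9 pair-rule genes belong. Within 10 kb a called summit was found for 18 of 18 Hedgehog pathway, 20 of 23 Wingless pathway, 5 of 9 pair-rule and 1 of 6 gap genes. Over all genes the share was 73.7%. The neighbourhoods of these lists differed as well, with median numbers of other genes in the window of 4.5, 4, 0 and 0.5 in that order. So did gene length, with which the window grows. The medians were 7488.5, 12448, 2533 and 2567.5 bp in the same order, beside 2170 bp over all genes. Numbers of TSSs also differed between genes, with 11 annotated for sgg and 4 each for gish, gro and rdx. With 1 TSS per gene, 9 of 18 Hedgehog and 12 of 23 Wingless pathway genes had a called promoter summit, beside 33.7% of all genes. The genes boi, rdx, fz2 and gish were then not called.

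**Figure D4:**
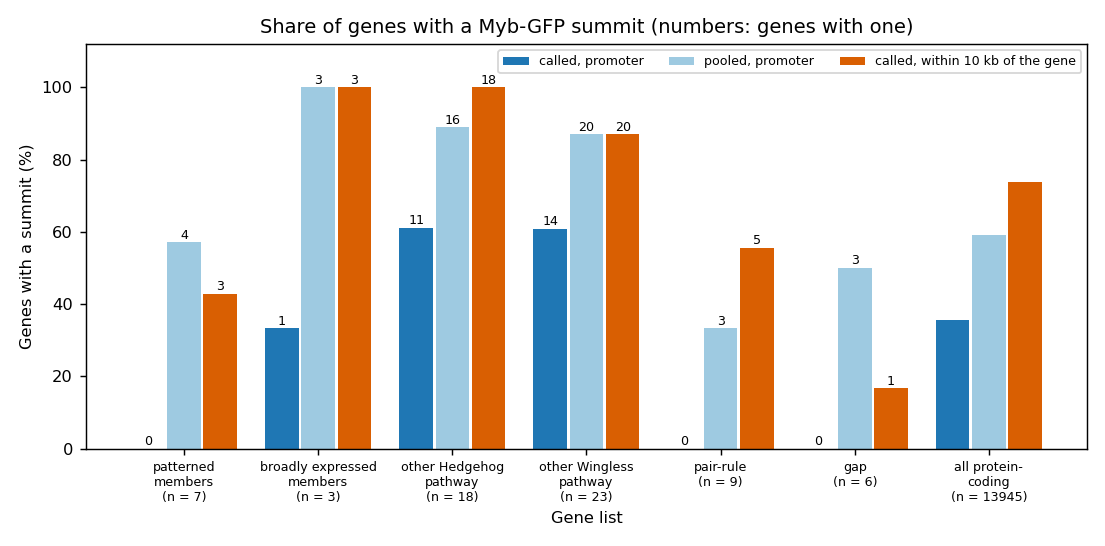
Percentage of genes with a called promoter summit (dark blue), a pooled promoter summit (light blue) and a called summit within 10 kb (orange) in each gene list, with the number of genes above each bar and the number in the list below. The patterned segment polarity, pair-rule and gap genes have 0 called promoter summits, while 11 of 18 other Hedgehog and 14 of 23 other Wingless pathway genes have one; over all genes the dark blue bar is at 35.6%.

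The letters of the promoters held no searched word in all 10 genes. In the 300 bp from 250 bp upstream to 50 bp downstream of the first TSS, the CHR word was present in 4 of the 10 genes (arm, ci, gsb and inv) beside 48.1% of all promoters. The Myb word was present in 2 (arm and inv) beside 16.3%, the GAGA word in 3 (en, gsb and ptc) beside 29.7%, and the DRE word in 0 beside 9.36%. Within 50 bp of the 21 called summits in the windows, the CHR word was present at 5, the DRE word at 4, the GAGA word at 3 and the Myb word at 1. Over all 6100 called summits the shares were 23.0%, 6.08%, 9.80% and 9.59%. The 101 bp around the called summit of smo held none of the 4. A match is a description of the letters and does not show a site.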

How the data were processed

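The analysis used 4 deposited dm6 peak lists with 10 columns and no header line. Per the labels, they come from chromatin of 2 biological replicates. The sources used here do not name the aligner, the peak caller, their versions or the IDR value used for the called set. The signal of each peak is the deposited value of the authors' peak caller. Depth is unknown, so no counting interval is given. A summit is the interval start plus the offset in the deposited list, and 96 called entries that repeat an interval with another summit were kept.

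Summits were matched to 23581 TSS positions of Ensembl release 115, on 6 arms, with Python 3.11.15, numpy 2.4.6 and pandas 2.3.3. Windows were 500 bp from a TSS and 10 kb from a gene. The matching was tested on simulated data. Sequences are from the RefSeq copy of dm6. The pair-rule gene h is listed as hry. No test was made, and the genes and lists were chosen with earlier results of these data known. The named genes were the 10 members, every gene nearest to a called summit in their windows, and the 3 strongest of each other list; others, such as the Wnt genes, were named after their values were seen. Alternatives were other windows, a higher threshold, 1 TSS per gene, 1 summit per interval and each replicate alone. Lists on build dm3 were not used here.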

Additional observations from a re-analysis of the deposited data

How the results depend on the processing

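The counts were recomputed with other windows, the 3050 strongest called summits, 1 TSS per gene, 1 summit per interval, ci counted as broadly expressed, and the 6100 strongest peaks of 1 replicate. Of these values 55 stayed within 1.5 times the count reported, and 4 did not. The 55 include 2 ranks of smo, whose spread was taken from the same 2 replicates, so they say nothing about its stability. The 55 also include counts of 0 for the patterned, pair-rule and gap genes under settings that could only give 0 again. Those were the narrower promoter window, the 3050 strongest called summits, 1 TSS per gene, 1 summit per interval and, for the patterned genes, ci moved. Without replicate 2, 2 of the 10 genes (arm and smo), and so 2 of the 3 broadly expressed ones, had a called promoter summit, beside 36.5% of all genes. With the 3050 strongest called summits, 8 of 23 other Wingless pathway genes had one, beside 21.6% of all genes in place of 35.6%. Without summits at another gene's TSS, 2 of the 10 genes had a called summit within 10 kb, beside 34.1% of all genes. Leaving out either replicate, promoter counts ran from 1 to 2 for the 10 genes and for the broadly expressed genes, from 0 to 0 for the patterned, pair-rule and gap genes, from 9 to 11 for the other Hedgehog and from 13 to 16 for the other Wingless pathway genes. The promoter share over all genes was 33.9% without replicate 1 and 36.5% without replicate 2. Within 10 kb the count of the 10 genes ran from 6 to 7, with inv added without replicate 1. That share over all genes was 72.6% without replicate 1 and 74.3% without replicate 2. The rank of smo ran from 1570 to 2248. Within 20 kb, wg and gsb were added, for 8 of 10 genes beside 83.6% of all genes. With ci moved, the promoter counts were 0 of 6 patterned and 1 of 4 broadly expressed genes. No paired analysis was possible because the series has 1 group. Unknown depth, 2 replicates and the lack of a control library analysed here limit every weak summit: 1 that is missing from a list was not among its 30000, which does not show that Myb is absent.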
